A study of Mus musculus with 147 samples.

Results

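The interleukin-1 and inflammasome genes described here are Il1a, Il1b, Il1rn, Il1r2, Il18, Nlrp3, Casp1, Casp4, Pycard and Gsdmd. They were chosen by name, as a family of related function, with earlier results of these data known. Ensembl identifiers were matched to mouse symbols with the version dropped. All 10 were found among the 50686 identifiers of both count tables. RNA was counted in 147 libraries of sorted mouse macrophages and monocytes, made by Smart-seq2 (a full-length method for small numbers of cells).

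Interleukin-1 is an early alarm signal of the innate immune system. Interleukin-1α (Il1a) and interleukin-1β (Il1b) bind the same receptor, whereas the receptor antagonist (Il1rn) and the decoy receptor (Il1r2) bind without signalling and so damp the response. Interleukin-1β and interleukin-18 (Il18) are made as inactive precursors. They are cut to their active form by caspase-1 (Casp1), which is switched on in inflammasomes, complexes of a sensor such as NLRP3 (Nlrp3) with the adaptor ASC (Pycard). Caspase-11 (Casp4 in current mouse nomenclature) senses cytosolic lipopolysaccharide, and both caspases cut gasdermin D (Gsdmd), which forms pores in the cell membrane. In pancreatic islets interleukin-1β is known to affect insulin secretion, and in macrophages its transcript and that of Nlrp3 are well known to be induced by microbial and inflammatory signals. Transcript counts carry no information on cutting or release.

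In mm10, the assembly of the tables, Il1a lies on chromosome 2 at 129299610-129309972 and Il1b at 129364570-129371139, both on the minus strand, by GENCODE M21 positions (the release behind the counts is not known here). Il1rn lies elsewhere on chromosome 2 at 24336853-24351494 (plus strand) and Il1r2 on chromosome 1 at 40074079-40125231 (plus strand). Casp1 (5298517-5307265) and Casp4 (5308828-5336783) neighbour each other on the plus strand of chromosome 9, which also carries Il18 (50554827-50581840, plus strand). Nlrp3 lies on chromosome 11 at 59541568-59566956 (plus strand), Pycard on chromosome 7 at 127989708-127993867 (minus strand) and Gsdmd on chromosome 15 at 75862327-75867408 (plus strand). The values below are counts over whole genes. Exons of Il1a, Il1b and Pycard overlap those of Gm14023 (222 bases), Il1bos (25 bases) and Gm45205 (485 bases) on the opposite strand, so reads there cannot be assigned to a gene without knowing the strand setting.

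RefSeq promoters of GRCm38.p6 were matched for 9 of the 10 genes, and Gsdmd was not among them. The 120 bases before the start are printed for the pair of ligands, whose order differed between populations, and for the sensor and the adaptor, which were highest in different populations. Capitals mark the motif matches, with positions counted back from the base before the start. Il1b and Il1a are shown first, then one of 2 listed Nlrp3 starts, then Pycard.
Il1b, chr2:129371140-129371259, minus strand: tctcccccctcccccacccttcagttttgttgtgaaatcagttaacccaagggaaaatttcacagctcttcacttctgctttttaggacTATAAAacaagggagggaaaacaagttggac
Il1a, chr2:129309973-129310092, minus strand: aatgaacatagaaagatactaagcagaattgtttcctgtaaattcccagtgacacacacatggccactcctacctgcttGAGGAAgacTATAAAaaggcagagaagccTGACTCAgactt
Nlrp3, chr11:59542566-59542685, plus strand: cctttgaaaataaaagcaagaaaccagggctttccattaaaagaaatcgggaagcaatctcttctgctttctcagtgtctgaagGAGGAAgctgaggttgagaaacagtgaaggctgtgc
Pycard, chr7:127993868-127993987, minus strand: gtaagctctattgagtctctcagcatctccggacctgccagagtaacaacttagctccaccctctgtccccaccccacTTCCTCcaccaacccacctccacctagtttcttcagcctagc
Both ligand promoters held a TATA box (TATAAA), 31 to 26 bases before the start in Il1b and 32 to 27 bases before it in Il1a. TATAAA occurred on either strand of the 250 bases before the start in 12.4% of 32851 mouse promoters. Il1a also held the core of the PU.1 motif (GAGGAA, 41 to 36 bases before the start), the site class of the factor that sets up macrophage gene expression, and an AP-1 motif (TGANTCA, 12 to 6 bases before it, a palindrome that reads the same on both strands). The PU.1 core stood 36 to 31 bases before the Nlrp3 start and, on the other strand as TTCCTC, 42 to 37 bases before the Pycard start. It occurred in 23.3% of the promoters and the AP-1 motif in 6.75%. The Rel/NF-kB consensus, found in 3.90% of promoters, matched the 250 bases of Casp4 and of the other Nlrp3 start but not those of Il1a or Il1b. These are letter matches in short windows and not measured binding sites.

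In the refeeding experiment, 110 libraries of 400 cells came from mice refed for 2 h after a 12 h fast and from mice fasted for 12 h, in 4 cohorts. Blood monocytes, colonic macrophages, adipose tissue macrophages and microglia had 9 refed and 8 fasted libraries each, with 7 and 6 of islet macrophages and Kupffer cells (the macrophages of the liver), and 8 and 8 of peritoneal macrophages. In the diet experiment, 37 libraries in 8 cohorts came from mice given streptozotocin (STZ, which destroys beta cells of the islets) at week 4 of an 8-week high-fat diet, mice fed high-fat diet alone for 8 weeks, and mice on normal diet. In that order there were 3, 4 and 4 islet libraries of 400 cells, 5, 4 and 5 peritoneal libraries of 100000 cells, and 4, 4 and 4 microglia libraries of 5000 cells. For strain, sex and age, nothing is given in the sources used here. For 4 refed libraries (islet 1_2 and 3, Kupffer 1 and 2) the description mentions the fast alone, but title and treatment give refeeding, and they were counted as refed. Islet libraries numbered 1_2 and 5_6 bear the numbers of a pair of mice each.

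Libraries held 7915242 to 27315750 counts in the refeeding experiment and 11349232 to 34466388 counts in the diet experiment. CPM values of single genes are counts scaled to a library total of 1000000 with TMM factors, given as mean ± SD over libraries. The 2 tables were normalised separately. Summed levels of lists of marker genes are CPM without these factors. The factors ran from 0.671 to 1.228 in the refeeding experiment and from 0.691 to 1.220 in the diet experiment. Because bulk counts are relative, fewer cells of a type and less RNA per cell cannot be told apart. In 5 of 7 populations, every library was above all libraries of other populations in the summed level of its own markers. The colonic and islet lists did not separate in this way, with 0 of 17 and 8 of 13 libraries above all others. General macrophage and monocyte markers (Csf1r, Cd68, Adgre1, Fcgr1, Lyz2, Itgam) summed to at least 6135 CPM in each library of the refeeding experiment. Colonic refed library 7 stood apart, with 240 CPM of Il1b, an epithelial list of 2527 CPM and immediate early genes (transcripts that rise within minutes of handling) of 4771 CPM, against at least 14206 CPM of immediate early genes in each other colonic library.

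In fasted mice, the ligand, antagonist and decoy transcripts were highest in islet and colonic macrophages, while the adaptor Pycard was highest in peritoneal macrophages, where Il1b was close to absent. The edgeR quasi-likelihood test on all 16114 genes, with p-values adjusted by the Benjamini-Hochberg method within each of 21 pairs of populations, called 52.9% of 210 member differences. Over all genes and pairs 17% were called (57578 of 338394), and between 8.98% and 25.5% in a single pair. The median difference of all genes ran from -0.32 to 0.33 on the log2 scale over the pairs.

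Il1b had 3573 ± 1581 CPM in fasted islet macrophages (876 to 5180 CPM, median 3805, n = 6) and 3140 ± 1288 CPM in colonic macrophages (1028 to 5144 CPM, median 3143, n = 8). Kupffer cells followed with 538 ± 154 CPM (n = 6) and adipose tissue macrophages with 321 ± 190 CPM (n = 8). Blood monocytes had 25.8 ± 12.3 CPM, microglia 23.8 ± 24.8 CPM and peritoneal macrophages 2.86 ± 3.30 CPM (n = 8 each). Islet macrophages were 10.70 ± 1.01 log2 units (SE) above peritoneal macrophages (edgeR adjusted p = 1.95e-11) and 2.81 ± 0.81 above Kupffer cells (adjusted p = 0.0157). Neighbours in this order often did not differ beyond their spread. Islet and colonic macrophages differed by 0.51 ± 0.73 (adjusted p = 0.780), and colonic macrophages and Kupffer cells by 2.31 ± 0.77 (adjusted p = 0.0514). Adipose tissue macrophages were 3.61 ± 0.72 above monocytes (adjusted p = 0.000258), and microglia 3.26 ± 0.74 above peritoneal macrophages (adjusted p = 0.000689).

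Il1a followed another order. It had 877 ± 492.7 CPM in fasted colonic and 648 ± 318 CPM in islet macrophages, 248 ± 72.4 CPM in Kupffer cells and 198 ± 47.4 CPM in microglia (132 to 271 CPM). Peritoneal macrophages had 16.1 ± 11.6 CPM, adipose tissue macrophages 15.8 ± 19.5 CPM and monocytes 0.417 ± 0.581 CPM. Microglia did not overlap with peritoneal macrophages (2.65 to 37.1 CPM) and lay 3.64 ± 0.78 log2 units above them (edgeR adjusted p = 0.000303), while 0.47 ± 0.75 separated Kupffer cells from microglia (adjusted p = 0.781). Adipose tissue macrophages were 4.84 ± 0.88 above monocytes (adjusted p = 6.21e-05).

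Which ligand was higher differed between populations. Per kilobase of exon, fasted microglia had 100 CPM of Il1a and 12.5 CPM of Il1b, and peritoneal macrophages 8.17 and 1.499 CPM. Fasted islet macrophages had 328 CPM of Il1a and 1874 CPM of Il1b per kilobase, and adipose tissue macrophages 8.00 and 169 CPM. Il1a exceeded Il1b per kilobase in 17 of 17 microglia and 16 of 16 peritoneal libraries of the refeeding experiment, and in 12 of 12 and 14 of 14 in the diet experiment. It did so in 0 of 17 adipose, 0 of 17 colonic, 0 of 17 monocyte, 0 of 13 Kupffer, 0 of 13 refeeding islet and 0 of 11 diet islet libraries.

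The inhibitors were highest in the same pair of populations as the ligands. Il1rn, the receptor antagonist, had 1044 ± 698 CPM in fasted colonic macrophages (399 to 2357 CPM) and 219 ± 224 CPM in islet macrophages (26.3 to 609 CPM), a difference of 2.46 ± 0.81 log2 units (edgeR adjusted p = 0.0487). Adipose tissue macrophages had 55.9 ± 54.04 CPM, Kupffer cells 51.4 ± 14.8 CPM, monocytes 9.59 ± 7.70 CPM and peritoneal macrophages 8.69 ± 7.27 CPM. Fasted microglia had 0.466 ± 1.10 CPM, 4.54 ± 0.85 log2 units below peritoneal macrophages (adjusted p = 4.30e-05). Microglia thus carried 198 CPM of a ligand transcript with almost none of the antagonist. Il1r2, the decoy receptor, had 624 ± 340 CPM in colonic and 241 ± 139 CPM in islet macrophages, which did not differ beyond their spread (1.26 ± 1.15, adjusted p = 0.602). The next population, Kupffer cells, had 9.85 ± 11.1 CPM, and islet macrophages were 5.43 ± 1.45 above them (adjusted p = 0.00874). The remaining populations had means of 0.272 to 8.55 CPM.

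Markers of neutrophils, of other cells and of handling are given beside this order. The neutrophil list, of which S100a8 and S100a9 are defining members, summed to 97.5 to 1262 CPM in fasted colonic libraries, with 4 of 12 genes at 0, but to at most 6.22 CPM in fasted islet libraries, with 4 of 12 at 0, where Il1b reached 5180 CPM. The 13 immediate early genes summed to 30453 to 50705 CPM in adipose tissue macrophages, 4771 to 31089 CPM in colonic, 5121 to 35783 CPM in islet and 1083 to 3643 CPM in peritoneal libraries, refed and fasted together. Colonic libraries also held a plasma cell list of 67.99 to 102975 CPM in refed mice (median 24481) and 98.6 to 59493 CPM in fasted mice (median 7341), and a pancreatic acinar list of 15.4 to 16571 CPM in refed mice (median 9069) and 849 to 165052 CPM in fasted mice (median 11506), each with 0 genes at 0. In the other populations of the refeeding experiment these lists summed to at most 2586 and 785 CPM. The part of these lists in the order of levels, and in the relations between colonic libraries given further on, was not tested.

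**Figure D1:**
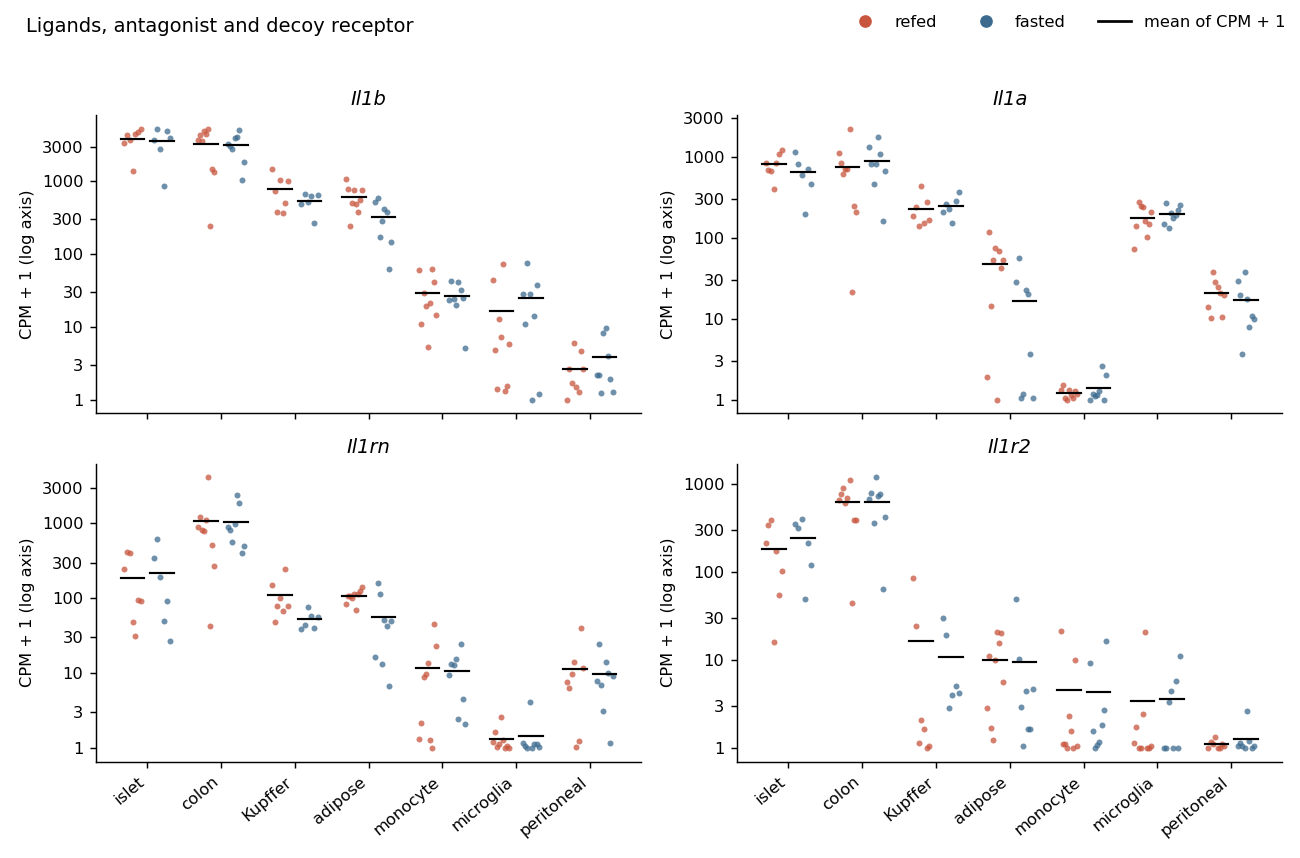
Levels of Il1b, Il1a, Il1rn and Il1r2 as CPM + 1 on a log axis in each library of 7 populations, refed libraries left of fasted ones, with the mean of CPM + 1 as a line. Islet and colonic means are at the top for Il1b and Il1r2, though for Il1b some of their libraries overlap adipose ones. Microglia are high for Il1a (72.5 to 276 CPM refed, 132 to 271 CPM fasted) while Il1rn stays at or below 3.19 CPM in them.

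Among the inflammasome genes, the sensor and the adaptor were highest in different populations. Nlrp3 had 729 ± 350 CPM in fasted islet macrophages and 358 ± 306 CPM in colonic macrophages, which differed by 1.32 ± 0.46 log2 units (edgeR adjusted p = 0.0574). It had 167 ± 121 CPM in adipose tissue macrophages, 148 ± 83.5 CPM in microglia, 126 ± 35.4 CPM in Kupffer cells, 82.7 ± 54.8 CPM in monocytes and 39.2 ± 15.9 CPM in peritoneal macrophages, and no pair of neighbours in this order passed the adjusted p. Pycard, the adaptor, had 301 ± 31.6 CPM in fasted peritoneal macrophages (257 to 347 CPM), above all libraries of the other 6 fasted populations, and 149 ± 18.8 CPM in microglia (124 to 177 CPM), a difference of 1.03 ± 0.25 (adjusted p = 0.00104). Microglia were 0.74 ± 0.24 above monocytes (89.6 ± 18.6 CPM, adjusted p = 0.0201). Adipose tissue macrophages had 79.2 ± 21.8 CPM, colonic macrophages 63.4 ± 27.4 CPM, islet macrophages 45.4 ± 24.4 CPM and Kupffer cells 35.9 ± 17.8 CPM.

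Casp1 and gasdermin D were closer in level across populations. Casp1 means lay between 51.8 ± 26.7 CPM in fasted microglia and 96.2 ± 57.2 CPM in Kupffer cells, and edgeR called 3 of 21 pairs (14.3%, below the 17% of all genes). Gsdmd lay between 103.3 ± 14.6 CPM in islet macrophages and 205 ± 60.3 CPM in Kupffer cells, with 5 of 21 pairs called. Casp4 was 136 ± 37.7 CPM in islet, 101.03 ± 39.99 CPM in colonic and 99.2 ± 58.6 CPM in adipose tissue macrophages, and 48.9 to 54.6 CPM on average in peritoneal macrophages, monocytes and Kupffer cells. Fasted microglia had 16.8 ± 17.6 CPM of Casp4, called below each of the other 6 populations, of which the nearest, Kupffer cells, was 1.61 ± 0.46 log2 units above (adjusted p = 0.0101). Il18 was 103.5 ± 32.4 CPM in fasted Kupffer cells (71.8 to 153 CPM), called above 5 of the other 6 populations. Microglia, with 40.1 ± 15.97 CPM, were the exception (1.32 ± 0.53, adjusted p = 0.0810), and the remaining means lay between 14.2 and 20.7 CPM.

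**Figure D2:**
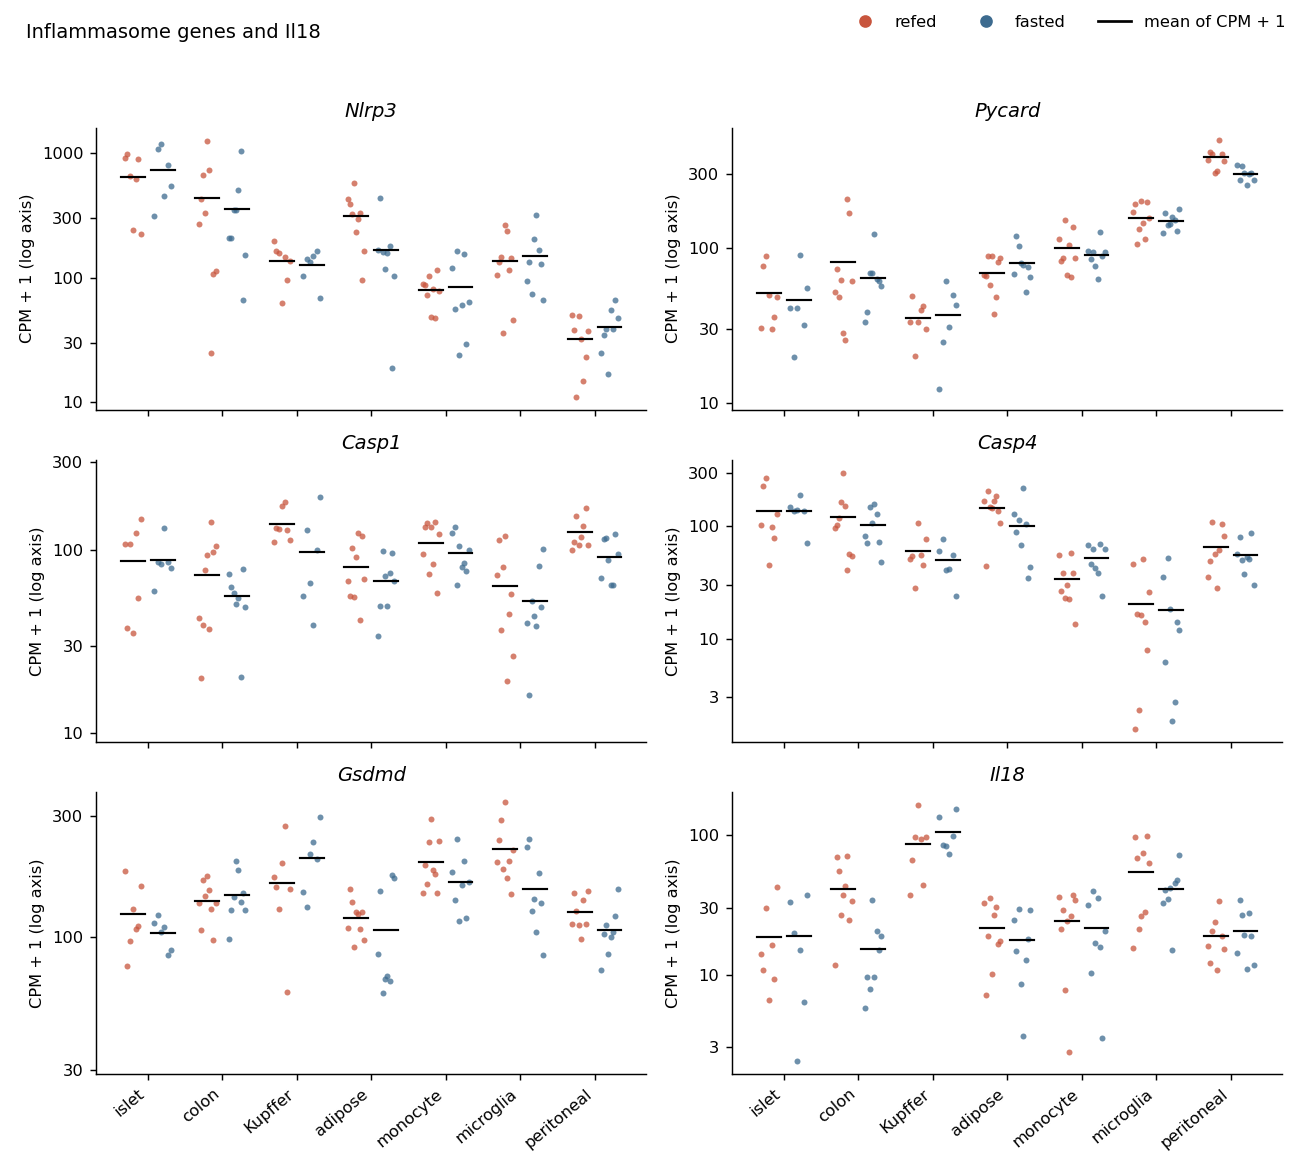
Levels of Nlrp3, Pycard, Casp1, Casp4, Gsdmd and Il18 as CPM + 1 on a log axis in each library of 7 populations, refed left of fasted, with the mean of CPM + 1 as a line. Pycard is highest in peritoneal libraries (307 to 499 CPM refed, 257 to 347 CPM fasted), where Nlrp3 is lowest, and Il18 is highest in Kupffer cells.

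Of 52 other genes of these pathways (receptors and their signalling proteins, other sensors, regulators, caspases and further family ligands), 46 were tested in the fasted pairs. From 5 to 18 of the 46 were called in a single pair. Over all genes 17% of pair differences were called, and the genes named next do not stand for all 46. The gene called in most pairs was Tnfaip3, which encodes A20, a ubiquitin-editing brake on NF-kB and on NLRP3, with 16 of 21. It had 1229 ± 468 CPM in fasted colonic, 1147 ± 313 CPM in islet and 558 ± 273 CPM in adipose tissue macrophages, and 19.3 ± 11.02 CPM in peritoneal macrophages. Irak2, a kinase of the interleukin-1 receptor pathway (15 pairs), ranged from 261 ± 99.4 CPM in islet to 20.01 ± 7.15 CPM in peritoneal macrophages. P2rx7, the ATP-gated channel that triggers NLRP3 (13 pairs), was highest in microglia at 359 ± 95.8 CPM. Il18bp, the soluble inhibitor of interleukin-18 (12 pairs), was 1038 ± 383 CPM in fasted Kupffer cells, the population with most Il18, and 153 ± 84.6 CPM in colonic macrophages, which Kupffer cells exceeded by 2.83 ± 0.88 log2 units (adjusted p = 0.0324). The signalling receptor Il1r1, named here after its values were seen, had means of at most 9.50 CPM in fasted populations and was at 0 in all 17 monocyte and 16 peritoneal libraries of that experiment, and a count of 0 allows up to 3 counts in a library.

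Refeeding for 2 h moved no member past the adjusted p in any of the 7 populations by edgeR. Of 66 tests of a member within a population, 8 (12.1%) had an unadjusted p below 0.05 and the smallest adjusted p was 0.124. Over all genes, 0 were called in 6 populations (0.0%), with 243 to 564 genes (2.42% to 5.16%) at an unadjusted p below 0.05. In peritoneal macrophages, which hold 2 of the 8, edgeR called 49 of 11331 genes (0.432%) and 1245 (10.99%) had an unadjusted p below 0.05. In each population the refed and fasted values of every tested member overlapped. A joint fit called a change that differed among populations for 1884 of 18640 genes (10.1%) but for 0 of the 10 members. Both results depended on settings given at the end. With the replicate number as a block far fewer genes were called, and without the filter on low counts Il1r2, Il1rn, Il1a and Il1b were called. Same-numbered libraries of different populations may share a mouse, which the fit did not take into account.

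The adipose tissue macrophages stood out by size. There the fitted value of 9 of 10 members was above 0 with refeeding, and the median change was 0.68 on the log2 scale. The median was -0.004 over all genes tested. Of 37 other genes of these pathways tested there, 15 were above 0, with a median of -0.12. Il1b ranged from 240 to 1081 CPM in refed mice (median 548, n = 9) and from 61.1 to 596 CPM in fasted mice (median 331, n = 8). Of the 9 refed libraries, 8 lay above the fasted median and 4 above every fasted library. The change was 1.16 ± 0.30 (edgeR adjusted p = 0.361), and within cohorts the difference of mean log2(CPM + 1) was positive in 4 of 4, from 0.631 to 2.505. Cohort counts, here and below, were made only for member changes with an unadjusted p below 0.05, on the same libraries. They describe the spread over cohorts and are no separate evidence. Nlrp3 had 314 ± 143 CPM in refed mice (95.2 to 571, median 325) and 167 ± 121 CPM in fasted mice (17.6 to 439, median 158). Again 8 of 9 refed libraries were above the fasted median, and the change was 1.15 ± 0.36 (adjusted p = 0.603), positive in 4 of 4 cohorts. Casp4 had 145 ± 47.9 CPM in refed and 99.2 ± 58.6 CPM in fasted mice (0.73 ± 0.34, adjusted p = 0.962), positive in 3 of 4 cohorts.

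The adipose change of largest fitted size was that of Il1a, 3.42 ± 1.64 (edgeR adjusted p = 0.980), with 0 to 115.4 CPM in refed mice (median 51.8) and 0.0504 to 55.5 CPM in fasted mice (median 10.9). Il1rn had 105.3 ± 21.2 CPM in refed mice (67.97 to 141) and 55.9 ± 54.04 CPM in fasted mice (5.78 to 161), so that its refed values lay inside the fasted range. Lists of other cells differed too. The mesothelium and fibroblast list summed to 77.2 to 1009 CPM in refed libraries (median 195, 1 of 7 genes at 0, Msln) and to 2.02 to 481 CPM in fasted ones (median 79.8, 0 of 7 at 0). The neutrophil list summed to 0.0927 to 114.2 CPM in refed (median 24.1) and 0.0520 to 112.8 CPM in fasted libraries (median 2.04), each with 4 of 12 genes at 0, Camp, Elane and Mpo among them. Their part in these differences was not tested.

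**Figure D3:**
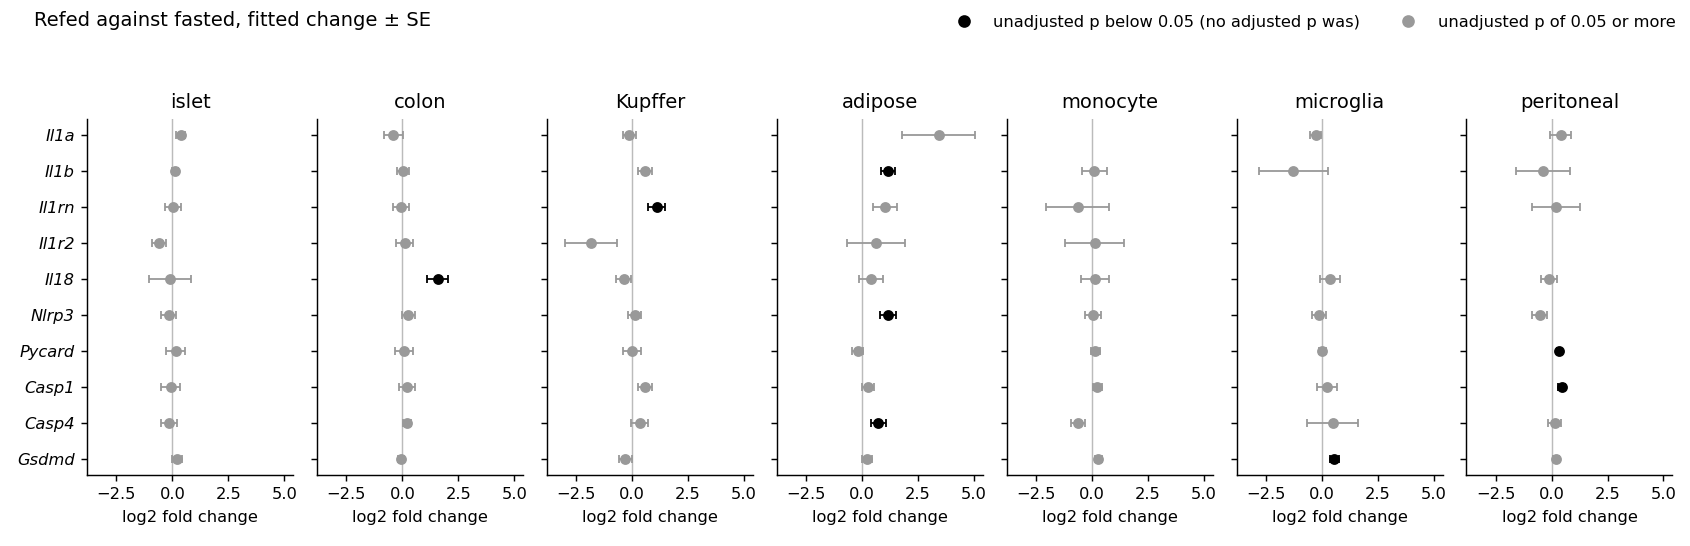
Fitted log2 change with refeeding, as refed over fasted, for each tested member in 7 populations, with its SE as a bar. Black points have an unadjusted p below 0.05 and no point passed the adjusted p. Adipose tissue macrophages hold 3 of the 8 black points, Il1b, Nlrp3 and Casp4, and the largest change, that of Il1a at 3.42.

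In colonic macrophages the member that differed most was Il18, a cytokine also made by the gut epithelium. It had 10.8 to 69.1 CPM in refed mice (median 35.8, n = 9) and 4.74 to 33.5 CPM in fasted mice (median 11.4, n = 8). Of the refed libraries, 8 were above the fasted median and 5 above all fasted libraries, a change of 1.59 ± 0.47 (edgeR adjusted p = 1.00), positive in 4 of 4 cohorts (1.19 to 1.94). The epithelial list (Epcam, Krt8, Krt18, Krt19, Cdh1, Cldn7, none at 0) summed to 55.1 to 3109 CPM in refed (median 298) and 14.5 to 1197 CPM in fasted libraries (median 368). Without refed libraries 7 and 8, which had the most of it and were left out after seeing the data, the Il18 change was 1.55, and the part of epithelial RNA in the other libraries was not tested. The ligands were level, with 3266 ± 1794 CPM of Il1b in refed and 3140 ± 1288 CPM in fasted mice, and 734 ± 645 and 877 ± 492.7 CPM of Il1a.

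In Kupffer cells Il1rn had 47.6 to 243 CPM in refed mice (median 78.4, n = 7) and 37.99 to 76.4 CPM in fasted mice (median 48.9, n = 6). Of the refed libraries 5 were above every fasted one (4 on CPM without scaling factors). The change was 1.10 ± 0.39 (edgeR adjusted p = 1.00), positive in 3 of 3 cohorts that held both groups. In cohort 1 (1.05) both refed libraries were those described by the fast alone, and cohorts 2 and 4 had 0.415 and 1.21. Over 7 alternative settings, including a fit without those libraries, the change ran from 0.76 to 1.10. The neutrophil list summed to 1000 CPM in refed library 1 and to 299 CPM in fasted library 1, and without both the change was 0.84. The largest fitted change there was that of Il1r2 (-1.86 ± 1.16, adjusted p = 1.00, but 0.34 by voom), with a refed median of 0.657 CPM against a fasted median of 3.63 CPM and a single refed library, number 1, at 83.8 CPM. Il1b had 793 ± 418 CPM in refed and 538 ± 154 CPM in fasted Kupffer cells.

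In peritoneal macrophages the differences were small but narrow. Pycard had 307 to 499 CPM in refed mice (median 389, n = 8) and 257 to 347 CPM in fasted mice (median 303, n = 8). All 8 refed libraries were above the fasted median and 6 above every fasted library, a change of 0.34 ± 0.09 (edgeR adjusted p = 0.124), positive in 4 of 4 cohorts. Casp1 had 124 ± 25.4 CPM in refed and 91.1 ± 24.02 CPM in fasted mice, again with 8 of 8 refed libraries above the fasted median (0.45 ± 0.15, adjusted p = 0.224). Nlrp3 had the largest change, in the other direction, with 30.8 ± 14.6 CPM in refed and 39.2 ± 15.9 CPM in fasted mice (-0.54 ± 0.33, adjusted p = 0.618). Of 36 pathway genes tested in these cells, 1 rose and 0 fell. It was Ninj1, which encodes a membrane protein that ruptures dying cells after gasdermin pores have formed. It had 775 to 988 CPM in refed mice (median 863) and 575 to 692 CPM in fasted mice (median 636), without overlap, a change of 0.45 ± 0.07 (adjusted p = 0.00978). Ninj1 was called in all 16 refits, added after seeing the data, that left out 1 library (change 0.43 to 0.48, highest adjusted p = 0.0474). With the replicate number as a block, 0 genes were called in peritoneal macrophages, Ninj1 included.

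In microglia Gsdmd had 147 to 342 CPM in refed mice (median 200, n = 9) and 84.1 to 243 CPM in fasted mice (median 139, n = 8). All 9 refed libraries were above the fasted median (0.57 ± 0.21, edgeR adjusted p = 1.00), and the difference was positive in 3 of 4 cohorts. The largest fitted change there was that of Il1b (-1.27 ± 1.54, adjusted p = 1.00), with 15.8 ± 24.8 CPM in refed and 23.8 ± 24.8 CPM in fasted mice. Islet macrophages had the highest Il1b in both groups, 3880 ± 1272 CPM in refed (n = 7) and 3573 ± 1581 CPM in fasted mice (n = 6). Their largest change was that of Il1r2, with 184 ± 141 CPM in refed and 241 ± 139 CPM in fasted mice (-0.59 ± 0.30, adjusted p = 1.00). In monocytes Il1b had 28.7 ± 21.3 CPM in refed and 25.8 ± 12.3 CPM in fasted mice. The largest change there was that of Il1rn (-0.64 ± 1.40, adjusted p = 1.00), with a refed median of 7.79 CPM and a fasted median of 10.2 CPM. Outside peritoneal macrophages 0 of the 34 to 41 tested pathway genes passed the adjusted p. In the joint fit, which called 10.1% of all genes (1884 of 18640), 2 of 46 differed in their change among populations. These were the sensor genes Nlrp10 (edgeR adjusted p = 0.0101) and Mefv (adjusted p = 0.0420), both with many libraries at or near 0.

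Across single libraries, Il1b moved together with other members most closely in the colon. Relations of Il1b with Il1a, Il1rn and Nlrp3 on log2(CPM + 1) were computed in each of 7 populations, 21 in all, with 100000 permutations and Benjamini-Hochberg adjustment over them. In 17 colonic libraries Pearson's r was 0.938 with Il1a (rho = 0.760), 0.917 with Il1rn (rho = 0.875) and 0.913 with Nlrp3 (rho = 0.865). Each permutation p for r was 1e-05, the smallest the permutations can give, and 7e-05 after adjustment, and the adjusted p for rho was 0.00448, 0.000315 and 0.000315 in that order. Without the 2 libraries farthest from the median of Il1b, r was 0.780, 0.802 and 0.844 (adjusted permutation p = 0.00623, 0.00388 and 0.00126). Centred within treatment and cohort, r was 0.888, 0.861 and 0.798 (adjusted permutation p = 0.00042, 0.00136 and 0.00154). Centring leaves fewer free values than libraries, which the permutations did not take into account, so p-values of centred relations are likely too small.

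Libraries of the colon with low Il1b were thus low in each of the other 3 genes. Refed library 7, the lowest, had 20.4 CPM of Il1a, 41.2 CPM of Il1rn and 23.6 CPM of Nlrp3 beside its 2527 CPM of the epithelial list. Its neutrophil list summed to 1.49 CPM, the least of the colonic libraries, while refed library 8 had the most of the epithelial list (3109 CPM). Refed library 6, highest of the refed group in Il1a and Il1rn, had the most of the neutrophil list (2456 CPM). Refed library 5, highest in Nlrp3 (1260 CPM), had 94.4 CPM of it. The part of other cells in these relations was not tested. In 13 islet libraries rho with Il1a was 0.643 (adjusted permutation p = 0.0862) and r was 0.853 (adjusted permutation p = 0.0042). Without the 2 farthest libraries r was 0.416, so that the pooled relation rested on them. Centred within treatment and cohort r with Il1a was 0.796 (adjusted permutation p = 0.00311). With Il1rn the centred r was 0.799 (adjusted permutation p = 0.00247), against 0.333 uncentred (adjusted permutation p = 0.484). Without the 2 farthest libraries the uncentred r with Il1rn was -0.145. Islet libraries 1_2 and 5_6 were each alone in their treatment and cohort, and most others were in pairs. Centring thus left few free values, and no conclusion is drawn from these centred p-values. In 17 adipose libraries rho with Nlrp3 was 0.522 (adjusted permutation p = 0.117) and r was 0.721 (adjusted permutation p = 0.00937). This r was 0.323 without the 2 farthest libraries and 0.331 when centred within treatment and cohort. In microglia, where Il1a exceeded Il1b, r between them was -0.204 (adjusted permutation p = 0.608). The remaining relations did not pass the adjusted p, pooled or centred.

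**Figure D4:**
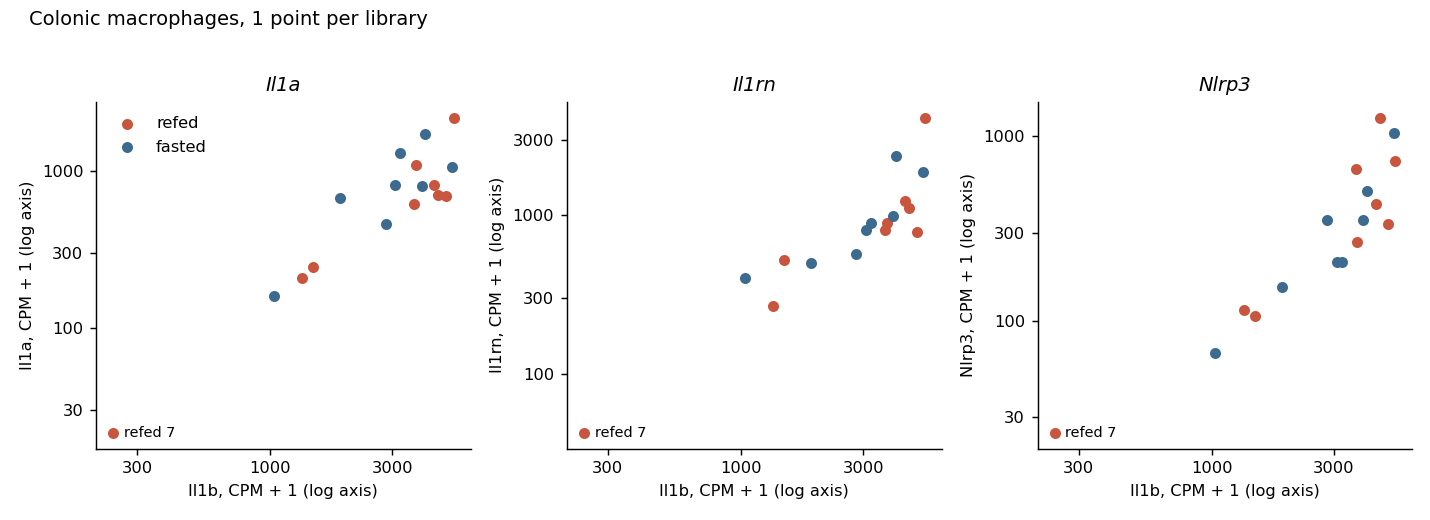
Il1a, Il1rn and Nlrp3 against Il1b in 17 colonic libraries, all as CPM + 1 on log axes, refed and fasted libraries in different colours. Both groups lie along the same band, and refed library 7 is lowest in all 4 genes, with 240 CPM of Il1b.

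In the diet experiment edgeR called 0 members in each of 9 comparisons. Of 81 tests, 5 (6.17%) had an unadjusted p below 0.05, against 2.15% to 19.6% of all genes in a comparison, and the smallest adjusted p was 0.228. In 8 of the 9 comparisons 0 genes were called at all (0.0%), and 1.29% were called in peritoneal macrophages of STZ mice against normal diet (171 of 13225). In the joint fit 0.992% of genes had a diet effect that differed among populations, and 0 of 10 members. Il1rn came nearest there, with an adjusted p of 0.0601.

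In islet macrophages the mean of the decoy receptor was lower and that of the antagonist higher in STZ mice than on normal diet, by differences that did not pass the adjusted p. Il1r2 had 125, 164 and 313 CPM in STZ mice, against 215, 294, 320 and 501 CPM on high-fat diet and 272, 278, 523 and 668 CPM on normal diet. All 3 STZ libraries were below the median on normal diet and 2 below every library of it, a change of -1.24 ± 0.37 (edgeR adjusted p = 0.755). It was negative in 3 of 3 cohorts that held both groups. Il1rn had 403, 470 and 1033 CPM in STZ mice, against 233, 494, 508 and 590 CPM on high-fat diet and 183, 322, 570 and 578 CPM on normal diet (STZ against normal 0.85 ± 0.27, adjusted p = 0.780). Its groups overlapped, with a single STZ library above all others, while within cohorts the difference was positive in 3 of 3. Against high-fat diet the changes in STZ mice were -0.87 ± 0.36 for Il1r2 and 0.66 ± 0.27 for Il1rn (adjusted p = 0.956 each), in the same direction in 2 of 3 cohorts each. With 1 library left out they ran from -1.27 (without STZ library 3) to -0.41 (without STZ library 4) for Il1r2, and from 0.40 (without STZ library 5) to 1.00 (without STZ library 4) for Il1rn. The median change of all genes in islet macrophages was -0.15 for STZ against normal diet, -0.29 for STZ against high-fat diet and 0.13 for high-fat against normal diet. Relative to that median the Il1r2 change is smaller and the Il1rn change larger. The islet endocrine list summed to 1839 to 6201 CPM over the islet libraries of the diet experiment, and its part was not tested.

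The ligands in islets overlapped. Il1b had 1656, 2458 and 3037 CPM in STZ mice, 1881, 2617, 2735 and 4050 CPM on high-fat diet and 1789, 2401, 2982 and 4687 CPM on normal diet. Il1a had 130, 183 and 380 CPM in STZ mice, 58.4, 149, 181 and 200 CPM on high-fat diet and 76.1, 155, 167 and 200 CPM on normal diet. Pycard had 25.7, 33.98 and 35.9 CPM in STZ mice and 0.547, 18.4, 19.4 and 25.01 CPM on normal diet (edgeR adjusted p = 0.964). Casp1 had 29.5, 46.7 and 63.2 CPM in STZ mice and 67.8 to 103.3 CPM on high-fat diet (edgeR adjusted p = 0.974). In both cases the groups overlapped on CPM without scaling factors, a check chosen after seeing the data. The largest change of high-fat against normal diet was that of Pycard (1.00 ± 1.06, adjusted p = 1.00).

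In peritoneal macrophages Pycard had 339, 347, 370, 377 and 480 CPM in STZ mice, 355, 386, 420 and 430 CPM on high-fat diet and 394, 401, 452, 535 and 759 CPM on normal diet. Of the 5 STZ libraries 4 were below every library on normal diet, but 1 of 5 on CPM without scaling factors. The change was -0.39 ± 0.17 (edgeR adjusted p = 0.228), negative in 5 of 5 cohorts, and -0.21 without normal-diet library 3, which had the 759 CPM, or without STZ library 3. General macrophage markers summed to 55366 to 101140 CPM in these STZ libraries and to 85925 to 147222 CPM on normal diet, and their part was not tested. The largest fitted change of STZ against normal diet was that of Il1b (-0.93 ± 0.82, adjusted p = 0.536), which was at most 3.13 CPM in each group, as was that of high-fat against normal diet (-0.89 ± 0.87, adjusted p = 0.989). Against high-fat diet the largest was that of Il1a in STZ mice (-0.19 ± 0.27, adjusted p = 0.918). Of 43 pathway genes tested in these cells, 0 rose and 1 fell in STZ mice against normal diet. It was the receptor gene Il1r1 (-2.91 ± 0.63, adjusted p = 0.0436), with means of 0.331 CPM in STZ mice and 2.26 CPM on normal diet, both low. With 1 library left out it was called in 2 of 10 refits, those without STZ library 3 and without normal-diet library 2, and the highest adjusted p was 0.127, without normal-diet library 5.

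Microglia of the diet experiment again had much Il1a and little Il1b, but not the low Casp4 of the refeeding experiment. Casp4 had 73.04 ± 31.7 CPM in STZ mice, 65.5 ± 23.01 CPM on high-fat diet and 64.4 ± 11.2 CPM on normal diet in microglia. In peritoneal macrophages of that experiment it had 40.2 ± 5.27 CPM (n = 5), 39.9 ± 4.14 CPM (n = 4) and 48.6 ± 8.74 CPM (n = 5) in the same order of diets, a difference between populations that was not tested. Il1a had 573 ± 110 CPM in STZ mice, 561 ± 135 CPM on high-fat diet and 622 ± 108.7 CPM on normal diet (n = 4 each), and Il1b 5.24 ± 4.72, 5.58 ± 3.799 and 8.33 ± 0.77 CPM in the same order. Il1rn was at 0 in 11 of 12 libraries. The immediate early genes summed to 59792 to 74525 CPM in these libraries, against 3824 to 47167 CPM in microglia of the refeeding experiment. That difference was not tested. These sums carry no scaling factors, while levels of single genes were normalised separately in each experiment. The largest fitted changes in STZ mice were those of Casp1, against normal diet (-0.44 ± 0.26, edgeR adjusted p = 1.00) and against high-fat diet (-0.37 ± 0.26, adjusted p = 1.00). STZ library 2_9 was alone in its cohort, so with cohort as a term it carried no information on these changes. It had 78.8 CPM of Casp1, against 31.1, 53.7 and 61.6 CPM in the other STZ libraries. The groups overlapped, with 40.7 to 74.1 CPM on high-fat diet and 45.3 to 73.4 CPM on normal diet. On high-fat against normal diet the largest change was that of Il1b (-0.62 ± 1.18, adjusted p = 1.00).

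**Figure D5:**
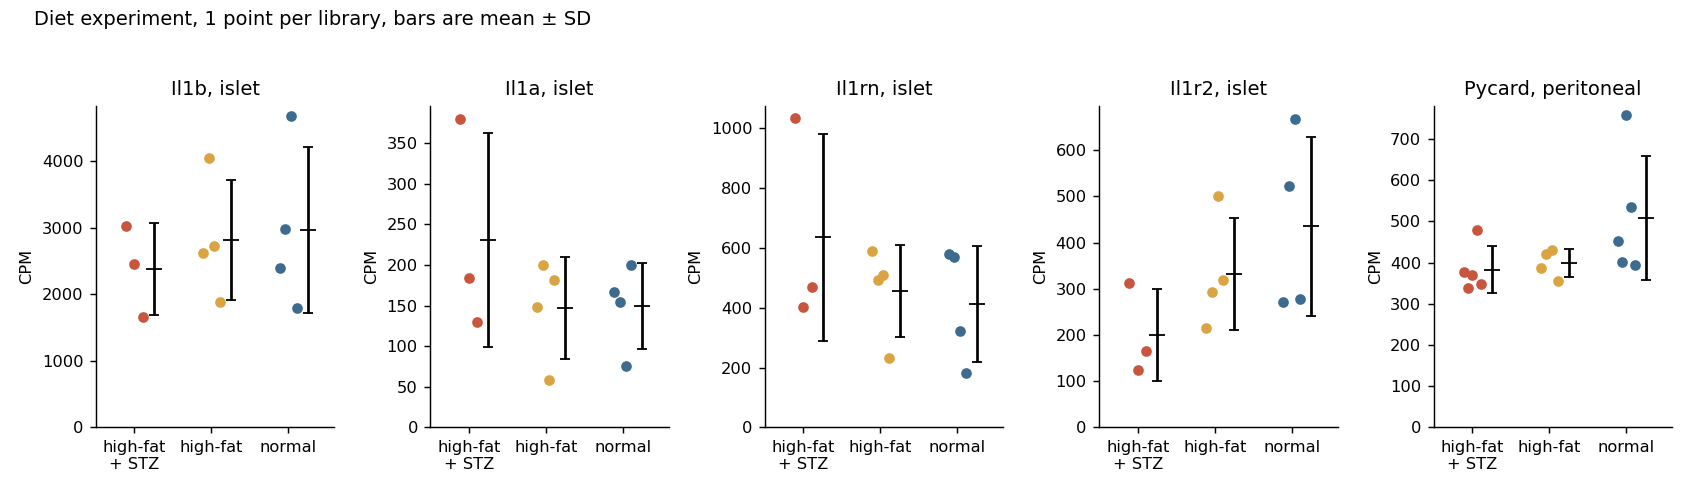
CPM in each library of the diet experiment with mean ± SD as bars, for Il1b, Il1a, Il1rn and Il1r2 in islet macrophages and Pycard in peritoneal macrophages, in the order high-fat diet with STZ, high-fat diet, normal diet. Il1r2 is lowest in STZ mice (125 to 313 CPM) and highest on normal diet (272 to 668 CPM), with overlap, and the groups of Il1b overlap throughout.

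Across the 110 libraries of the refeeding experiment, the genes whose log2(CPM + 1) profile was most like that of a member were looked up among 10462 genes of at least 5 CPM, as a description in which libraries of a population share their level. Il1b was most like Ms4a7 (r = 0.914), Cxcl10 (r = 0.894) and Gadd45b (r = 0.894). Il1a was most like Bcl2a1b (r = 0.873), Cadm1 (r = 0.831) and Gm14023 (r = 0.828), of which the last overlaps its exons on the other strand. Il1rn was most like Litaf (r = 0.855), Il10 (r = 0.837) and Ptgs2 (r = 0.834), and Il1r2 was most like Gpr31b (r = 0.895), H2-M2 (r = 0.868) and Slc7a11 (r = 0.861). Nlrp3 was most like Rel, which encodes an NF-kB subunit (r = 0.851), Spty2d1 (r = 0.822) and Sqstm1 (r = 0.798). Casp4 was most like Lilr4b (r = 0.818), Clic4 (r = 0.803) and Iqgap1 (r = 0.775). Pycard was most like Itgam, which encodes CD11b (r = 0.844), Arsg (r = 0.830) and Mlxipl (r = 0.758). Casp1, Gsdmd and Il18 had no close partner, with highest r of 0.521 (Gpx1), 0.562 (Ptpn1) and 0.570 (Fam167b). The next for Casp1 were Lpl and Psma7, for Gsdmd Pik3cd and Slc44a2, and for Il18 Zfp532 and Kcna2.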

How the data were processed

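The deposited tables hold raw read counts per gene. Per the submitters' processing notes the authors used Trimmomatic 0.36, STAR 2.5.1a, featureCounts and mm10, and RNA of flow-sorted cells was extracted with PicoPure, per the labels' protocols. For annotation release, strand setting and multi-mapping reads, nothing is given in the sources used here, so counts of genes that overlap or share sequence are uncertain. Of 50686 identifiers, 50376 matched a symbol.

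Members and gene lists were chosen with earlier results of these data known. Each comparison was fitted on all genes passing filterByExpr with edgeR 4.0.16 (R 4.3.3): TMM scaling, cohort as a term, the robust quasi-likelihood F test and Benjamini-Hochberg adjustment, called below 0.05. Joint fits tested fasted populations against each other and differences of change among populations. Relations and figures used Python 3.11.15, scipy 1.17.1 and matplotlib 3.10.9. The fits were tested on counts simulated with the same relative spread for every gene and no differences between cohorts. That does not measure how well changes of these members could be found. A member's fold change is given where its unadjusted p was below 0.05 or it was the largest of a comparison, and pathway genes are named where called (at most 5 a comparison). Same-numbered refed and fasted libraries share no stated animal, so the refeeding fits had cohort as a term but no block for the replicate number. In the diet fits the cohort, given by the labels, was the block, and same-numbered libraries had a mean residual correlation of 0.155 in 13 peritoneal pairs and 0.0496 in 10 islet pairs. No source says that libraries are separate animals in every case, so p-values measure the spread between libraries. Reads carry no molecular identifiers, so limits from a count of 0 cover counting error only. Among 443 pairs of libraries of a group, 0 held identical counts. Alternatives were DESeq2 1.42.0, RLE scaling, no filter, limma 3.58.1 voom with quality weights, other blocks and leaving out libraries.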

Additional observations from a re-analysis of the deposited data

Results flagged for a closer look

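In 22 of 217 combinations of a member and a group of 4 to 10 libraries, 1 library stood apart from the rest of its group. Chance gives about 1 in 20 for normally distributed values. That rate need not hold for CPM, which is skewed, or where the rest are at or near 0. All 22 stood apart at the high end, and the share over all genes was not determined. Of these, 14 were Il1rn or Il1r2. The part of the neutrophil list, given for some of these libraries, was not tested.

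Il1r2, the decoy receptor, was 83.8 CPM in Kupffer refed library 1, against 23.5 CPM in the next library, and 19.9 CPM in microglia refed library 6, against 1.47 CPM. These libraries held 1000 and 1282 CPM of the neutrophil list. It was 48.6 CPM in adipose fasted library 1 (next 9.31 CPM), 20.6 CPM in monocyte refed library 1 (8.91 CPM), 10.2 CPM in microglia fasted library 8 (4.84 CPM) and 1.67 CPM in peritoneal fasted library 5 (0.209 CPM). In the diet experiment it was 1.83 CPM in normal-diet microglia library 1_5 and 0.0657 CPM in normal-diet peritoneal library 1, with the other libraries of each group at 0.

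Il1rn, the antagonist, was 4123 CPM in colonic refed library 6 (next 1226 CPM), which also had the highest Il1a of its group, 2201 CPM (next 1095 CPM), and 2456 CPM of the neutrophil list. It was 43.8 CPM in monocyte refed library 8 (21.8 CPM) and 38.9 CPM in peritoneal refed library 8 (13.1 CPM). In microglia it was 3.19 CPM in fasted library 4 (0.160 CPM), 1.58 CPM in refed library 5 (0.625 CPM), which held 1635 CPM of the neutrophil list, and 1.79 CPM in normal-diet library 1_5, with the others at 0.

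Nlrp3 was 439 CPM in adipose fasted library 2 (next 179 CPM) and 1035 CPM in colonic fasted library 6 (504 CPM). Casp1 was 131 CPM in islet fasted library 5_6 (85.2 CPM), and Casp4 was 299 CPM in colonic refed library 5 (164 CPM). Pycard was 480 CPM in peritoneal STZ library 4 (377 CPM) and 123 CPM in colonic fasted library 5 (68.4 CPM). Gsdmd was 157 CPM in normal-diet peritoneal library 3 (115.4 CPM), whose scaling factor was 0.691. On CPM without scaling factors that library had 108.3 CPM, inside the 100.4 to 114.4 CPM of the others.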

How the results depend on the processing

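The number of members called changed under these settings, and the cause was not tested. In adipose tissue macrophages, refed against fasted, DESeq2 called 1 member (Il1b, adjusted p = 0.00914) and edgeR without a filter on low counts called 3 (Il1a, adjusted p = 0.00662, Il1b, 3.56e-07, and Nlrp3, 0.000102), against 0 with the filter. The adjusted p of Il1b ran from 3.56e-07 to 0.667 over the settings with all libraries or without a pair of them, and from 0.254 to 0.753 with 1 library left out. In peritoneal macrophages DESeq2 called 1 member with refeeding (Pycard, adjusted p = 0.0301), and in islet macrophages of STZ mice against normal diet 1 (Il1r2, adjusted p = 0.0377). Without the filter the refeeding change of 4 members differed among populations (Il1r2, Il1rn, Il1a and Il1b). Of 5 relations with Il1b past the adjusted p of Pearson's r, 3 were past it without the 2 libraries farthest from the median of Il1b. Of 793 member changes refitted under alternatives with refeeding or diet, 52 had the opposite sign to the reported fit, and in that fit the smallest unadjusted p among them was 0.132, that of Il1r2 in Kupffer cells (-1.86, but 0.34 by voom). Leaving out each library in turn, which was done for adipose, monocyte, peritoneal and diet libraries, called 0 members each time, and the adipose Il1b change then ran from 0.92 to 1.29 and that of islet Il1r2 in STZ mice against normal diet from -1.67 to -0.76. Without the refed libraries described by the fast alone, the refeeding change in Kupffer cells went from 0.11 to -0.10 for Nlrp3. It went from 0.00045 to -0.53 for Pycard there, and from -0.12 to 0.21 for Il18 in islet macrophages. The joint fits were refitted only without each islet library of the diet experiment. Of the called fasted differences, 95.5% were also called with the same sign under RLE scaling, 87.4% without a filter, 91.9% with the replicate block and 74.8% with voom, and 0 changed sign.

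Counts over all genes were less stable. Deviations of same-numbered refed and fasted libraries had mean correlations of 0.00549 (microglia) to 0.0730 (colon), so the number was not taken as a pairing. With the replicate number as a block, 0 members were called with refeeding, peritoneal macrophages had 0 genes called against 49 without it, and the refeeding change differed among populations for 4 genes against 1884. Without the replicate block in the diet fits 0 members were called. Genes called in refed peritoneal macrophages numbered 339 by DESeq2, 312 without a filter and 184 by voom, and from 9 (without refed library 4) to 2.43 times the 49 (without refed library 6) with 1 library left out. In peritoneal macrophages of STZ mice against normal diet they numbered 954, 710 and 832 against 171, and 30 (without STZ library 4) to 301 (without STZ library 2). In refed adipose tissue macrophages DESeq2 called 1.03% of genes, edgeR without a filter 0.411% and voom 0.0458%, against 0, and for islet macrophages of STZ mice against normal diet the calls numbered 594 by DESeq2, 4 without a filter and 5 by voom, against 0. The change among populations was called for 3906 genes without a filter and 183 by voom with refeeding, and for 417 and 36, against 171, in the diet experiment, where it was 167 to 383 without 1 islet library. In the other refeeding comparisons, each with 0 by edgeR, DESeq2 called 7 genes in monocytes, 39 in microglia, 35 in colonic, 44 in islet macrophages and 70 in Kupffer cells. Without a filter edgeR called 6, 13, 143, 8 and 37 in that order, and voom 3 in colonic macrophages and 13 in Kupffer cells. In the other diet comparisons, also each with 0, DESeq2 called 18, 23 and 51 genes in microglia (high-fat against normal, STZ against normal, STZ against high-fat), 223 and 374 in islet macrophages (the first and the last of these) and 24 and 202 in peritoneal macrophages, and edgeR without a filter 30, 10 and 48 in microglia and 22 in peritoneal macrophages on high-fat against normal diet, where voom called 6. STZ against high-fat diet in peritoneal macrophages had 166 without a filter, 340 by voom, 34 without the replicate block and 0 to 64 with 1 library left out.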
